A study of Mus musculus with 6 samples.

Results

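Of 143 single nuclei sorted from formalin-fixed, paraffin-embedded (FFPE) mouse brain into plates MB14 and MB16, 56 held at least 1 count of Gabra6 and 87 held none. The table that holds them has 280 nuclei, the other 137 coming from frozen tissue. The arms were chosen by the Gabra6 count of each nucleus, a readout of the same libraries, so they are described here and not tested. All mice were C57BL/6J, aged 8 to 12 weeks, with no genotype or treatment beyond tissue preservation given, and the tissue is called cortex. Nuclei came from 50 µm scrolls and were profiled with SMART-Seq2, a full-length RNA-seq protocol with 1 nucleus per well. The authors' annotation places the FFPE nuclei in the left and the frozen nuclei in the right hemisphere. The labels give no sex and no animal per nucleus. Each plate batch is 1 GEO sample, so nuclei are not replicates, and no p-value is given. A second batch of FFPE nuclei, 98 on plates MB17 and MB18, took no part in the split and was divided by the same Gabra6 rule into 32 and 66.

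Gabra6 encodes the alpha 6 subunit of the GABA-A receptor, the ligand-gated chloride channel of fast inhibition. In the brain it is best known as a marker of cerebellar granule neurons, where alpha 6 joins the delta subunit in receptors outside the synapse. Granule neurons are small glutamatergic cells that also express the cadherin Fat2, the transcription factor Zic1, the NMDA receptor subunit Grin2c and the secreted synapse organizers Cbln1 and Cbln3.

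Shown first are the RefSeq promoters of the 4 genes described most closely below. These are Gabra6 and the 3 granule neuron list genes called higher by both measures defined below. Such calls were no more frequent on that list than over all genes. In GRCm38, Gabra6 lies on chromosome 11 from 42306437 to 42321072, Fat2 on chromosome 11 from 55250609 to 55336564, Grin2c on chromosome 11 from 115249169 to 115267243 and Zic1 on chromosome 9 from 91358058 to 91365810, all protein-coding and on the minus strand. The windows run from 250 bases before to 50 bases after the RefSeq start on the gene's strand (GRCm38.p6) and are chr11:42321023-42321322, chr11:55312208-55312507, chr11:115267194-115267493 and chr9:91365719-91366018 in the same order. The Fat2 window lies inside the longer GENCODE gene model and does not reach that model's start at 55336564. Its half-site count therefore says nothing about the sequence at that start. Capitals mark TTGGC, the half-site of nuclear factor I, or its reverse complement GCCAA.
Gabra6: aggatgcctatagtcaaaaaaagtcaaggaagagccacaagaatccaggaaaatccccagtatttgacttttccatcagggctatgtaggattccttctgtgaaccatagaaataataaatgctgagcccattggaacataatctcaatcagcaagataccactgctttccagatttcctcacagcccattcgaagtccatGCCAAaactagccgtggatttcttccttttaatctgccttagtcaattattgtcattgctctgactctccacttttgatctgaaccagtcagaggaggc
Fat2: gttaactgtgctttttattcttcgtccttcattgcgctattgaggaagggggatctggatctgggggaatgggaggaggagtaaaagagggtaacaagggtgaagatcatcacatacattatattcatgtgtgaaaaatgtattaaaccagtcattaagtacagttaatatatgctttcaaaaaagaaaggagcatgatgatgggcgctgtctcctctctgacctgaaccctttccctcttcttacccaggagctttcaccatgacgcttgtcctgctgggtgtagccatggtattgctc
Grin2c: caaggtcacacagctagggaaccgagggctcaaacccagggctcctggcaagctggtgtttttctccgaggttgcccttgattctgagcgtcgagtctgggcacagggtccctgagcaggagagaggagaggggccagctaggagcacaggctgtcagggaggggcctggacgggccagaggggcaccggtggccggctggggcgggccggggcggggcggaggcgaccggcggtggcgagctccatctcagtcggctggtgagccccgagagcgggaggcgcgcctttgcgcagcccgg
Zic1: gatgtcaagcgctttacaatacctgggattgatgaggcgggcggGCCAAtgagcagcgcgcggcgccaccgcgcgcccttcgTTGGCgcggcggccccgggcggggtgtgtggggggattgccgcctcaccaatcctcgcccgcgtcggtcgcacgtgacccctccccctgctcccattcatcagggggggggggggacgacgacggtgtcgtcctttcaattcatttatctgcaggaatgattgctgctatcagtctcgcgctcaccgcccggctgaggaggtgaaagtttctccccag
The half-site occurred 1 time in the Gabra6 window, 2 times in the Zic1 window and 0 times in those of Fat2 and Grin2c. On either strand it was found in 46.7% of 32851 RefSeq promoter windows of this length, so its presence does not set these genes apart.

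The share of FFPE plate nuclei with Gabra6 was 39.2% (exact 95% binomial interval 31.1 to 47.7%). It was 23 of 69 nuclei (33.3%) on plate MB14 and 33 of 74 (44.6%) on plate MB16, and the intervals of the plates overlap. In batch 1 it was 32 of 98 (32.7%), with 5 of 28 (17.9%) on plate MB17 and 27 of 70 (38.6%) on plate MB18. Only 1 of 137 frozen nuclei held Gabra6, with 2 counts, although the frozen nuclei had a median of 255329 counts. Among the 56 positive nuclei Gabra6 ranged from 1 to 753 counts with a median of 6, or a median of 129 CPM, the count scaled to 1e6 counts per nucleus. Just inside the threshold, 12 nuclei held exactly 1 count, at a median of 56093 counts per nucleus, and just outside it were the 87 nuclei with 0, at a median of 42315. With 10 or more counts there were 22 nuclei, 15.4% of the 143. Intervals cover counting error only, since PCR reads without molecular identifiers are not independent molecules.

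The tissue label was checked against defining genes. Tbr1, a transcription factor of cortical projection neurons, had no count in any of the 143 FFPE nuclei (exact 95% upper limit 2.55%). It had none in the 98 nuclei of batch 1. Neurod6 was found in 2, Emx1 in 1 and Fezf2 in 2 of the 143, all in the positive arm. In the frozen nuclei the same genes were found in 43, 29, 30 and 43 of 137 for Tbr1, Neurod6, Emx1 and Fezf2. Cbln3, restricted in the brain largely to cerebellar granule neurons, was found in 65 of the 143 FFPE nuclei and in 2 of 137 frozen nuclei. These values go against the cortex label for the FFPE nuclei of both plate batches. Hemisphere and preservation differ together between the FFPE and frozen nuclei and cannot be told apart.

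Depth differed between the arms before any gene was compared. Positive nuclei held a median of 67776 counts (quartiles 33192 and 221465) and negative nuclei 42315 (24718 and 77397), and 35 of 56 positive nuclei lay above the negative median. The ranges overlapped on both plates. The whole set spans 3491 to 4973791 counts. The table also holds 9 nuclei that are absent from the batch 2 table, 7 of them positive, with 102136 counts or more, and without them 29 of 49 positive nuclei lay above the negative median. The authors' annotation lists 1 nucleus in each of the 143 wells, but one of the 9 showed 15973 genes and all 31 granule neuron list genes compared below, and whether each of the 9 is a single nucleus was not tested. Positive nuclei also showed more genes, a median of 2088 against 1435. Drawn down to 10000 counts per nucleus, which leaves out 3 positive and 5 negative nuclei, the medians were 1200 and 952 genes. In batch 1 the arms held 224451 and 165138 counts, and at 10000 counts the medians were close, 964 and 955 genes.

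**Figure D1:**
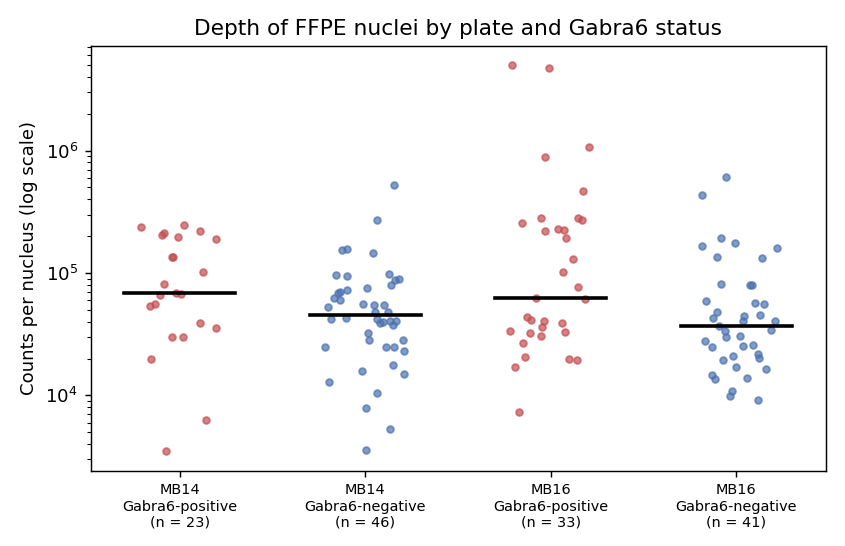
Counts per nucleus on a log axis for the FFPE nuclei of plates MB14 and MB16, split by Gabra6 status; each point is a nucleus and the bar is the median. The medians were 68324 and 45480 on MB14 and 62501 and 36969 on MB16, and the points of both arms overlap widely.

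A gene was compared on 3 measures. Mean CPM per nucleus gives its level relative to each nucleus's own total. Detection is the share of nuclei with at least 1 count. Expected detection after thinning each nucleus to 10000 counts removes the difference in depth, with 53 positive and 82 negative nuclei deep enough. A gene was called when the log2 ratio of mean CPM (with 1 CPM added) reached 1 in either direction, and called by both measures when thinned detection was also 2-fold apart the same way. The 7056 genes detected in at least 10% of the 143 nuclei were compared, Gabra6 left out. Their median log2 ratio of mean CPM was 0.01, while that of thinned detection was 0.37, so positive nuclei detected most genes more often even at equal counts and detection is read against that shift.

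Fat2, Zic1 and Grin2c were higher in the Gabra6-positive arm on every measure. Fat2, an atypical cadherin of granule neuron parallel fibers, was detected in 49 of 56 positive nuclei (87.5%, exact 95% interval 75.9 to 94.8%) and 36 of 87 negative nuclei (41.4%, 30.9 to 52.4%). Its level per positive nucleus ranged from 0 to 11476 CPM with a median of 143 CPM, and per negative nucleus from 0 to 4291 CPM with a median of 0. The mean was 1085 CPM against 266 CPM, a 4.08-fold difference, although single nuclei of the arms overlap. At 10000 counts the expected detection of Fat2 was 64.1% against 30.3%.

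Zic1, a zinc finger transcription factor kept on in granule neurons from the progenitor stage, had a smaller level than Fat2, a wider ratio of means and a narrower gap in detection. It was detected in 30 of 56 positive nuclei (53.6%, 39.7 to 67.0%) and 13 of 87 negative nuclei (14.9%, 8.20 to 24.2%). Mean Zic1 was 81.8 CPM against 7.01 CPM, 11.7-fold, with the highest nucleus at 1146 CPM in the positive and 113 CPM in the negative arm. The expected detection of Zic1 at equal counts was 25.8% against 6.51%.

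Grin2c, the NMDA receptor subunit of mature granule neurons, was detected in 38 of 56 positive nuclei (67.9%, 54.0 to 79.7%) and 26 of 87 negative nuclei (29.9%, 20.5 to 40.6%). Mean Grin2c was 1721 CPM against 307 CPM, 5.61-fold, and 47.5% against 18.4% of nuclei were expected to show it at equal counts. A single nucleus carried 26.8% of the positive arm's Grin2c, at 25830 CPM, and other positive nuclei stood at 21667 and 19669 CPM. Without the highest nucleus of each arm the means were 1283 and 225 CPM, the former still holding these other nuclei. With counts summed over each arm the log2 ratio of Grin2c was 0.87, short of the 2-fold rule, against 2.48 in mean CPM.

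The direction held for all 3 genes on each plate, but each plate is a part of the nuclei in which they were called. The 12 largest rises and 12 largest falls described below also all kept their direction on each plate and without the 9 deep nuclei. In batch 1, 5 and 9 of them did. Nuclei of MB16 and MB14 can look alike, as with Fat2 at 1943 and 1972 CPM and Grin2c at 19669 and 25830 CPM. Whether the plates are separate observations was not tested. The log2 ratio of mean CPM on MB14 was 1.63 for Fat2, 3.28 for Zic1 and 2.42 for Grin2c, and on MB16 it was 2.75, 3.69 and 3.39. Fat2 was found in 20 of 23 positive and 22 of 46 negative nuclei on MB14, and in 29 of 33 and 14 of 41 on MB16. Zic1 was found in 11 of 23 and 8 of 46 on MB14 and in 19 of 33 and 5 of 41 on MB16. Without the 9 deep nuclei the log2 ratios were 1.97 for Fat2, 3.48 for Zic1 and 2.63 for Grin2c.

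At least 1 of the 3 genes was present in 54 of 56 positive nuclei (96.4%, 87.7 to 99.6%) and in 52 of 87 negative nuclei (59.8%, 48.7 to 70.1%). All 3 were present in 18 positive nuclei and 1 negative nucleus. Of the 12 nuclei with a single Gabra6 count, 10 held Fat2, 6 held Zic1 and 8 held Grin2c, genes described here because they divide arms that include these nuclei. Among the 22 nuclei with 10 or more Gabra6 counts, 20 held Fat2, 15 held Zic1 and 16 held Grin2c. Mean Grin2c was 2871 CPM in the 22 against 647 CPM in the 12. Mean Fat2, at 706 against 1140 CPM, and mean Zic1, at 64.9 against 111 CPM, went the other way. Among the 22 were Grin2c values of 25830 and 21667 CPM. Among the 12 were Fat2 values of 8046.5 and 4400 CPM and a Zic1 value of 1146 CPM. These means thus rest on few nuclei, and their order is not read further. Etv1, another gene of the granule neuron list, was held by 5 of the 12, by 18 of the 22 and by 36 of the 87 negative nuclei.

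Frozen nuclei, of which 136 lacked Gabra6, give a level for these genes outside the FFPE plates. Grin2c was detected in 25.5% and Zic1 in 12.4% of the 137 frozen nuclei, next to 29.9% and 14.9% of the Gabra6-negative FFPE nuclei. Fat2 was found in 9.49% of the frozen nuclei and Cbln3 in 1.46%, next to 41.4% and 40.2% of the Gabra6-negative FFPE nuclei. The FFPE nuclei without Gabra6 thus held Fat2 and Cbln3 more often than frozen nuclei of higher median depth, while Grin2c and Zic1 stood near the frozen share.

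**Figure D2:**
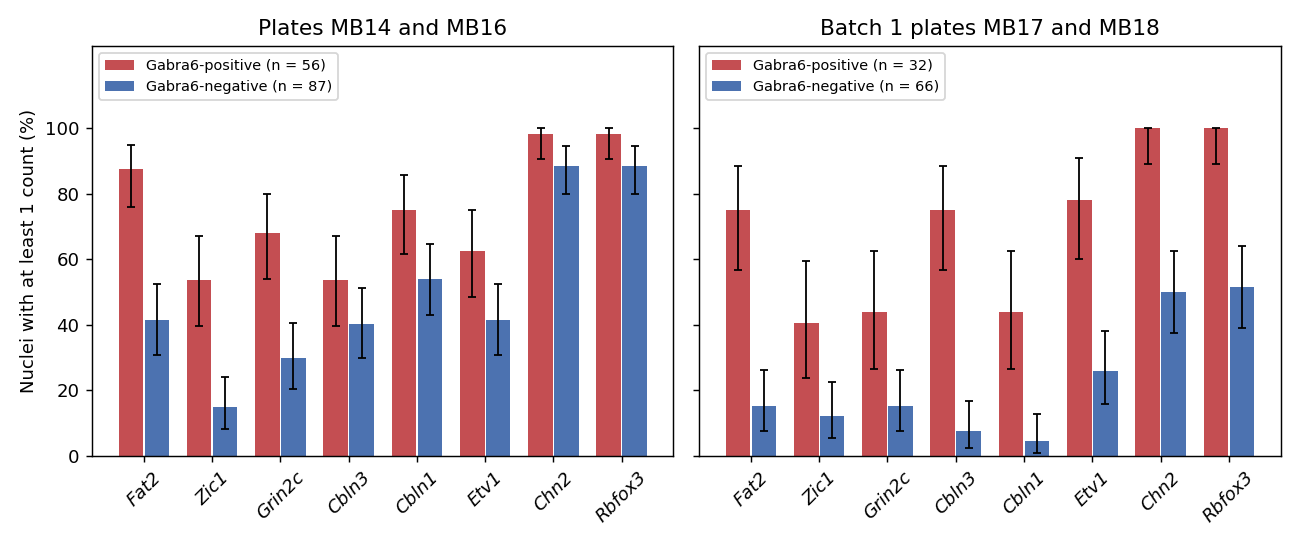
Share of nuclei with at least 1 count of 8 granule neuron genes in Gabra6-positive and Gabra6-negative nuclei, on plates MB14 and MB16 and on the batch 1 plates; error bars are exact 95% binomial intervals. In MB14 and MB16 the intervals of the arms are apart for Fat2, Zic1 and Grin2c and overlap for Cbln3, whereas in batch 1 Cbln3 stood at 24 of 32 against 5 of 66.

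The wider granule neuron list differed by measure. Of 40 listed genes besides Gabra6, 38 were in the table and 31 passed the detection filter, and the list had been chosen with results of these data known. By mean CPM 7 of the 31 were called higher in the positive arm and 1 lower, next to 29% and 27.5% of all 7056 genes. By both measures 3 were called higher, namely Fat2, Zic1 and Grin2c, and 0 lower, next to 13.8% and 2.58% of all genes. The counts higher lie under the all-gene shares on either rule. With summed counts Grin2c dropped out and 2 were left. The list's median log2 ratio of mean CPM was 0.37 against 0.01 over all genes, and its median for thinned detection, 0.38, lay at the all-gene value of 0.37. Thinned detection was higher in the positive arm for 30 of the 31, next to 4803 of the 7056 genes. On the mean of log2(CPM + 1) the list's median was 1.36, against 0.46 over all genes. The 31 genes passed a filter on all nuclei together, so a gene seen only in 1 arm had to reach the filter there.

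By mean CPM the other genes called higher were Kcnc1, Pax6, Car10 and Galntl6. Kcnc1, a fast-gating potassium channel, stood at 534 against 214 CPM and was detected in 39 of 56 and 48 of 87 nuclei, but its log2 ratio of 1.31 was 0.86 with summed counts and 0.78 without the highest nucleus of each arm, short of 2-fold. Car10, a secreted carbonic anhydrase-related protein that binds neurexins, stood at 1655 against 592 CPM and was found in 55 of 56 and 71 of 87. Pax6, a transcription factor of granule neuron progenitors and mature granule neurons, stood at 112 against 38.03 CPM while it was detected in 16 of 56 and 22 of 87, shares that differed little, and with counts summed over each arm its log2 ratio turned to -0.89. Svep1, called lower, stood at 31.2 against 87.9 CPM but its log2 ratio of -1.47 was -0.45 with summed counts and turned to 0.33 on the mean of log2(CPM + 1).

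Several defining granule neuron genes had no higher mean CPM with Gabra6 than without it, and a few nuclei carried much of each mean. Cbln3 stood at 186 CPM in positive and 254 CPM in negative nuclei and was found in 30 of 56 and 35 of 87. The 4 highest nuclei of each arm, a number chosen after seeing the values, held 54.2% of the positive and 79.1% of the negative arm's summed CPM of Cbln3, and the other nuclei averaged 91.8 and 55.7 CPM. Cbln1 stood at 302 and 361 CPM, in 42 of 56 and 47 of 87. Chn2, a Rac GTPase-activating protein abundant in granule neurons, was detected in 55 of 56 and 77 of 87, at 1549 and 1886 CPM. Grm4, the presynaptic metabotropic glutamate receptor of parallel fibers, stood at 870 and 973 CPM, in 44 of 56 and 49 of 87. Outside the 4 highest nuclei of each arm Grm4 averaged 433 and 304 CPM and Chn2 1067 and 1020 CPM, so that their order turned, as it did for Cbln3, while Cbln1 averaged 183 and 192 CPM. Rbfox3, which encodes the neuronal nuclear antigen NeuN, was detected in 55 of 56 and 77 of 87. For all 4 of Cbln3, Cbln1, Chn2 and Grm4 the mean CPM was lower in the positive arm while detection at equal counts was higher. That detection was 36.4% against 25.4% for Cbln3 and 63.8% against 41.5% for Grm4. It was also higher in the positive arm for 4803 of the 7056 genes.

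Counting the 31 list genes in each nucleus, positive nuclei held a median of 20.5 (lowest 9, highest 31) and negative nuclei 16 (lowest 1, highest 27). At 10000 counts the expected medians were 15.4 and 10.9, where all genes together also stood higher, at 1200 against 952. The arms overlapped along their whole length apart from the lowest and highest nuclei.

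**Figure D3:**
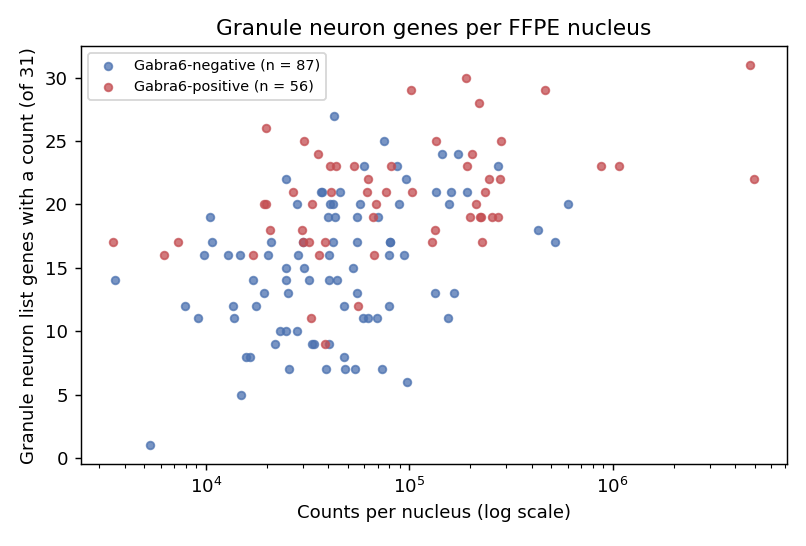
Number of the 31 compared granule neuron list genes with a count, against counts per nucleus on a log axis, for each FFPE nucleus of plates MB14 and MB16, coloured by Gabra6 status. The medians were 20.5 and 16 genes at the nuclei's own, unequal depths, with broad overlap of the arms.

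Batch 1, which the split did not use, called more of the list higher, but its plates differed and MB18 holds 27 of its 32 positive nuclei. Of 31 list genes compared there, 19 were called higher by mean CPM and 2 lower, next to 24.4% and 35.1% of 5183 genes. By both measures 14 were higher and 0 lower, next to 11.3% and 11.4%. The list's median log2 ratio in batch 1 was 1.48, against -0.25 over all genes. On MB18 alone 28 of 33 list genes were called higher and 2 lower, next to 25.1% and 36.9% of all genes, with a median of 1.75. On MB17 alone, with 5 positive nuclei, 7 of 25 were called higher and 11 lower, next to 23.3% and 58.9%, with a median of -0.17 against -1.99 over all genes. Cbln3 stood at 850 CPM in 24 of 32 positive nuclei and 68.3 CPM in 5 of 66 negative nuclei. Cbln1 was found in 14 of 32 and 3 of 66, Grm4 in 25 of 32 and 12 of 66, and Fat2 in 24 of 32 and 10 of 66. Zic1, at 78.0 against 39.4 CPM and in 13 of 32 against 8 of 66 nuclei, was just under 2-fold apart in mean CPM. Negative nuclei of batch 1 held a median of 8 of the 31 genes and positive nuclei 19.5. General neuron genes moved the same way in batch 1, with a median log2 ratio of 0.87 over 13 genes, against 0.09 on MB14 and MB16, and Rbfox3 was found in 32 of 32 positive and 34 of 66 negative nuclei; oligodendrocyte and astrocyte genes moved the opposite way, as given with those lists. The part of these genes in the list's separation was not tested. The larger separation in batch 1 also came with negative nuclei that held fewer granule neuron genes than those of MB14 and MB16; the difference between the batches was not tested.

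Among the GABA-A receptor subunits, 9 of the 17 besides Gabra6 passed the filter, 1 called higher and 3 lower by mean CPM, the lower count being near the 27.5% of all genes and the higher one under the 29%. Gabra2, an alpha subunit of synaptic receptors, stood at 27.8 against 6.86 CPM and was detected in 18 of 56 and 8 of 87 nuclei. It was also called by detection, but in batch 1 it stood at 66.2 against 91.5 CPM. Among those called lower, the beta subunit gene Gabrb1 stood at 75.2 against 175 CPM and the gamma subunit gene Gabrg3 at 110 against 298 CPM. With counts summed over each arm, Gabrb1 and Gabrg3 turned to log2 ratios of 1.08 and 0.47, and on the mean of log2(CPM + 1) Gabrb1 turned to 0.11. Gabrd, the delta partner of alpha 6, stood at 386 and 560 CPM in 23 of 56 and 26 of 87 nuclei. In batch 1 Gabrd was higher in positive nuclei, at 380 against 102 CPM, in 9 of 32 and 6 of 66.

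Microglial genes were lower in mean CPM in the positive arm, 7 of 7 compared. Csf1r, the receptor for colony-stimulating factor 1, stood at 17.9 against 498 CPM and Cx3cr1, the fractalkine receptor, at 21.7 against 314 CPM. C1qb, a chain of complement C1q, stood at 20.4 against 337 CPM. All 7 were called lower, next to 27.5% of all genes, and 0 of the 7 by both measures, next to 2.58%. The list's median log2 ratio was -3.50, but it was -1.97 with counts summed over each arm and -0.24 on the mean of log2(CPM + 1), where the median of all genes was 0.46. Csf1r was detected in 10 of 56 and 18 of 87 nuclei, and Cx3cr1 in 14 of 56 and 15 of 87, shares closer together than the levels. At equal counts all 7 were detected in a smaller share of positive nuclei, Csf1r in 5.16% against 10.4%. Any microglial gene was found in 34 of 56 positive and 46 of 87 negative nuclei, and the highest nuclei held 1599 and 23752 CPM of the list.

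Oligodendrocyte genes were spread through both arms of MB14 and MB16. Mbp, encoding myelin basic protein, was found in 48 of 56 and 74 of 87 nuclei at 1816 and 1865 CPM. The astrocyte gene Apoe was found in 43 of 56 and 68 of 87 at 4408 and 4485 CPM. Of 14 oligodendrocyte genes compared, 2 were called higher and 4 lower by mean CPM; of 15 astrocyte genes, 1 was higher and 5 lower. The counts lower lie near the 27.5% of all genes and those higher under the 29%. Mag, a myelin adhesion protein, was higher with Gabra6 at 286 against 67.2 CPM, while Ugt8a, which makes the myelin lipid galactosylceramide, was lower at 4.02 against 57.4 CPM; both were called by both measures. In batch 1 all 14 oligodendrocyte genes compared were called lower with Gabra6, next to 35.1% of all genes called lower, with a median log2 ratio of -3.34, and Mbp was found in 7 of 32 and 38 of 66 nuclei. Ugt8a was found in 0 of 32 and 14 of 66 there. Of 13 astrocyte genes compared in batch 1, 10 were called lower and 1 higher, with a median log2 ratio of -1.81. As plate-based nuclei cannot separate RNA of the sorted nucleus from RNA of other cells in the well, the part of such RNA in these shares was not tested.

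Other neuron lists differed among themselves. Of 12 cortical interneuron genes compared, 1 was called higher and 6 lower by mean CPM, with a median log2 ratio of -1.07. Of 10 cerebellar interneuron genes 1 was higher and 4 lower, with a median of -0.82. Over all genes 29% were higher and 27.5% lower. In batch 1, 0 of 8 cerebellar interneuron genes were called higher and 6 lower, next to 24.4% and 35.1% of all genes there. Of the Purkinje cell list, 10 genes were compared, 3 called higher and 1 lower by mean CPM. Over all genes these shares were 29% and 27.5%, so the higher count is at the background. By both measures 2 were called higher and 0 lower, next to 13.8% and 2.58% of all genes. Itpr1, an intracellular calcium channel, stood at 188 against 65.8 CPM and was called by both measures. The inhibitory neuron gene Gad1, which encodes a GABA-synthesizing enzyme, stood at 76.1 against 234 CPM and was called lower by mean CPM only, a log2 ratio of -1.61 that was -0.11 with summed counts and -0.29 without the highest nucleus of each arm. Gad1 turned round on plate MB14, where its log2 ratio was 1.67, and on the mean of log2(CPM + 1), where it was 1.04. In batch 1, Gad2 was found in 1 of 32 positive and 20 of 66 negative nuclei. Mef2c, a transcription factor of cortical and other neurons and of microglia, was lower at 80.9 against 1247 CPM, and a single nucleus held 82.6% of the negative arm's Mef2c. Malat1, a nuclear long noncoding RNA, was found in all 143 nuclei at 3216 and 2768 CPM.

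**Figure D4:**
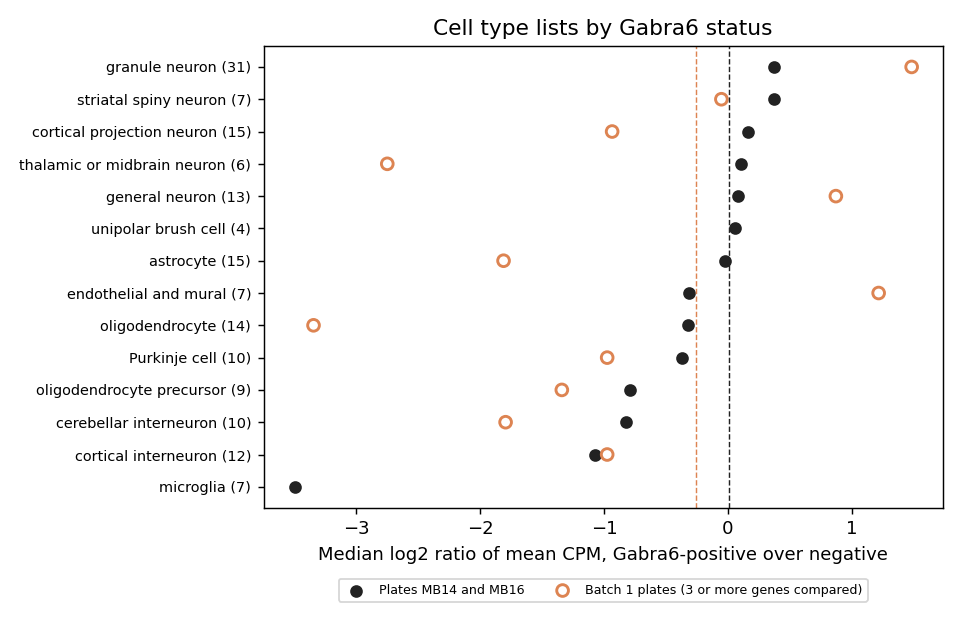
Median log2 ratio of mean CPM, Gabra6-positive over negative, for each cell type list with 3 or more genes compared (number in parentheses), on plates MB14 and MB16 (filled) and batch 1 (open); dashed lines are the all-gene medians of 0.01 and -0.25. The granule neuron list stands at 0.37 and 1.48 and the microglia list at -3.50, while the striatal spiny neuron list also stands at 0.37 on MB14 and MB16.

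Across all genes, 2046 were called higher and 1937 lower by mean CPM, and 973 and 182 by both measures. On the mean of log2(CPM + 1) per nucleus, which weights how many nuclei hold a gene over how much 1 nucleus holds, 1526 were higher and 40 lower, and the median of all genes moved to 0.46. On that scale 28 of the 31 granule neuron genes lay above the median of all genes, against 21 of 31 in mean CPM. With 10 or more Gabra6 counts as the threshold, 1767 were higher and 2785 lower by mean CPM. Without the 9 deep nuclei 676 genes were higher and 313 lower by both measures.

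The 12 genes with the largest ratio toward the positive arm among those called by both measures were Rabif, Ift80, Tor1aip2, Cmc2, Slx4, Ddx49, Sec23b, Foxj2, Bcl7a, Efna5, Rnmt and Zswim7. Rabif, a chaperone for Rab GTPases, stood at 1082 against 1.31 CPM in 13 of 56 and 3 of 87 nuclei. Ift80, a component of intraflagellar transport in cilia, stood at 509 against 0.24 CPM in 15 of 56 and 1 of 87. Tor1aip2, which binds torsin at the endoplasmic reticulum, was found in 16 of 56 positive nuclei and had no count in the 87 negative nuclei. Measured against a floor of 3 counts over the whole negative arm, Tor1aip2 was 147-fold higher in summed counts. That floor covers counting error only, so the value is not a lower bound. Rnmt, the mRNA cap methyltransferase, stood at 119 against 0.27 CPM in 17 of 56 and 1 of 87. These genes were each detected in 11 to 20 of the 56 positive nuclei, and a single nucleus held 23.8 to 91.5% of the arm's summed CPM.

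Toward the negative arm the 12 largest were Kcnab3, Nelfcd, Adck1, Urod, Aox3, Kcnn3, Rap2a, Ccnd3, S100a1, Ube2f, Ddrgk1 and Stk38. Kcnab3, a potassium channel beta subunit, stood at 2.12 against 547 CPM in 4 of 56 and 13 of 87 nuclei. Urod, an enzyme of heme synthesis, stood at 6.70 against 706 CPM in 7 of 56 and 15 of 87. S100a1, a calcium-binding protein, stood at 6.19 against 449 CPM in 5 of 56 and 14 of 87. They were found in 9 to 18 of the 87 negative nuclei, with 25.7 to 82.5% of the arm's CPM in a single nucleus.

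Batch 1 shared few of these. Of the 12 genes higher with Gabra6, 5 had the same direction and 7 the opposite, and of the 3 that passed the detection filter there Rnmt alone, at 338 against 11.3 CPM in 9 of 32 and 3 of 66 nuclei, was called by both measures. Of the 12 lower genes 9 had the same direction and 3 the opposite, and 0 of the 3 that passed the filter were called. Over all genes called by both measures, 515 of the 973 higher genes could be compared in batch 1 and 64 were called higher there (12.4%, next to 10.7% of all genes compared in both batches), with 52 called lower. Of the 182 lower genes 78 could be compared, 14 were called lower (17.9%, next to 11.1%) and 9 higher. A share near the background is no result about these genes. Ugt8a was among the 14, and Pid1, a regulator of insulin signalling, was another, detected in 13 of 56 and 28 of 87 nuclei.

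**Figure D5:**
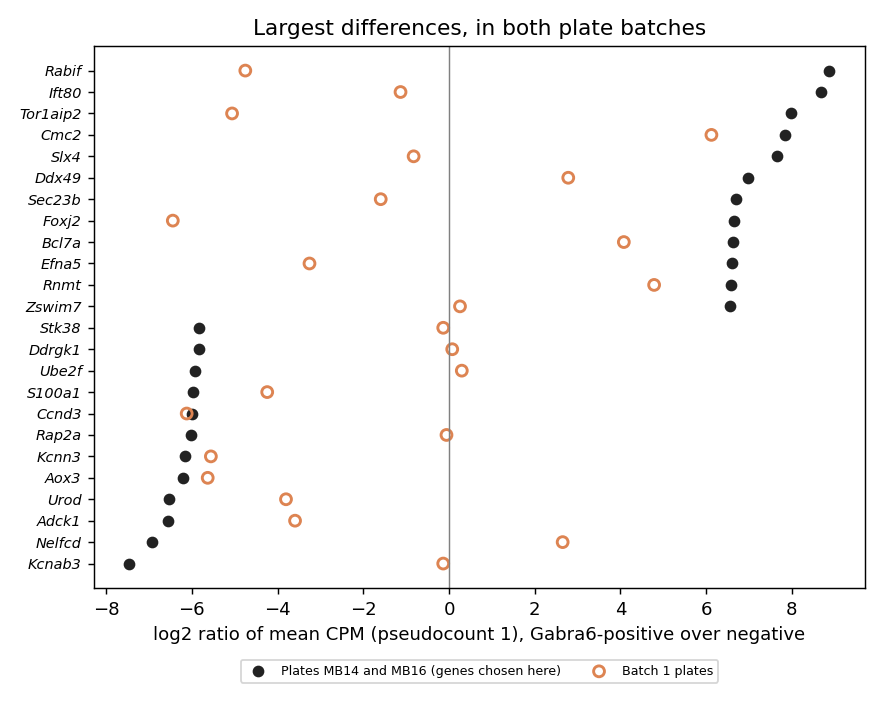
Log2 ratio of mean CPM (1 CPM added) for the 12 largest differences in each direction on plates MB14 and MB16 (filled) and for the same genes in batch 1 (open). The filled points lie far from 0 because they were chosen so, and the open points fall on the same side for 14 of the 24 genes.

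Droplet nuclei of the same series (10x Genomics, 7031 nuclei in the authors' 12 classes) gave a shallow reading of the same split. Gabra6 was found in 528 nuclei, 7.51%, at a median of 325 UMIs per nucleus. In the authors' Microglia class, which should lack the gene, it was found in 5 of 93 (5.38%, exact 95% interval 1.77 to 12.1%, median 285 UMIs), and in ExNeuron3 in 132 of 1105 (11.9%, 10.1 to 14.01%, median 321 UMIs). Astrocyte, a larger class that should also lack it, stood at 25 of 624 (4.01%, 2.61 to 5.86%, median 339 UMIs), below ExNeuron3 and below ExNeuron2, at 9.20% of 1098 nuclei (7.55 to 11.1%, median 296 UMIs). The shares of all 12 classes lay within the wide Microglia interval, and ExNeuron3 lay above ExNeuron1, where 139 of 2121 nuclei (6.55%, 5.54 to 7.69%, median 331 UMIs) held Gabra6. Fat2 was found in 35 of the 528 droplet nuclei with Gabra6 and in 367 of the 6503 without. Of 31 granule neuron list genes present in at least 1% of droplet nuclei, 27 were detected in a larger share of nuclei with Gabra6, next to 47.4% of the 6385 droplet genes at that level. Of the 31, only Gm2694, a long noncoding RNA next to Cbln1, was detected 2-fold more often, in 35 of 528 against 215 of 6503, as were 0.658% of all genes. No doublet caller was run on the droplet nuclei, and the sources used here do not say how doublets were treated, so their part in these shares was not tested.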

How the data were processed

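The authors deposited raw counts per gene and nucleus for the plate tables and UMI counts for the droplet table, per the file headers and values. Their annotation tables give plate, preservation and the percent of counts on human genes, a deposited percent of at most 9.98 in these nuclei. The submitters' processing notes name the builds mm10 and hg19; no source used here names the aligner or the counter. Of the FFPE nuclei, 134 equal the batch 2 table (21117 shared genes, 0 values differing) and the other 9 were kept. Batch 3 was not used here.

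Nuclei were split at 1 Gabra6 count. CPM was computed per nucleus and averaged per arm. Expected detection at 10000 counts used the hypergeometric distribution, with 1 nucleus added to each arm in the ratio; 3 counts served as the floor. Members and gene lists were chosen with earlier results of these data known. Named genes were the 12 largest ratios in each direction called by both measures, all compared genes of the granule neuron, Purkinje and GABA-A lists, the 3 highest of each other list, and the 5 largest shares of counts; some named genes are not reported here, though the lists' counts include them. No test was run: each batch is 1 sample. The comparison was also run on simulated nuclei that differed by counting, depth and set changes only, with depth capped at 200000 counts. That run cannot show how the calls behave in nuclei as uneven as these. Tools were Python 3.11.15, numpy 2.4.6, pandas 2.3.3, scipy 1.17.1 and matplotlib 3.10.9. Alternatives varied the threshold, scaling, depth, pseudocount (10 CPM), filter and nuclei.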

Additional observations from a re-analysis of the deposited data

Results flagged for a closer look

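Of 85 named genes that passed the detection filter in both batches, 6 passed 2-fold in mean CPM in opposite directions in the 2 batches of FFPE plates; the difference was not tested in any of them. Without that filter in batch 1, 7 of the 24 genes named for size did so, 2 of which passed it. Ift80 had a log2 ratio of 8.69 on plates MB14 and MB16 and -1.13 in batch 1. Efna5, an ephrin ligand, had 6.61 and -3.26, and without the highest nucleus of each arm its ratio on MB14 and MB16 was 3.49. The granule neuron list gene Svep1 had -1.47 and 4.16. Galntl6, from the same list, had 1.85 and -3.22. Dner, a Notch-related protein of Purkinje cells, had 1.12 and -3.78. Camk2a, a kinase of forebrain excitatory neurons, had 1.03 and -6.02.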

How the results depend on the processing

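Results were recomputed under the alternatives set for each of them, and on the mean of log2(CPM + 1), without the highest nucleus of each gene in each arm and on each batch 1 plate alone, all chosen after seeing the data. Of 157 recomputed counts and shares, 117 stayed within 1.5 times (or the 95% interval) of the reported value. The Gabra6-positive share was 30.8% at 2 or more counts and 15.4% at 10 or more. With the detection filter at 5%, mean CPM called 3156 genes higher and 3034 lower and both measures called 1834 and 353; at 20% these were 884, 790, 320 and 42, fewer genes being compared. Both measures called 37 lower with 10 or more Gabra6 counts and 313 without the deep nuclei. On the mean of log2(CPM + 1), 40 genes were lower. Granule neuron genes higher by mean CPM were 11 on plate MB16 and 20 on the mean of log2(CPM + 1), and by both measures 5 with 10 or more Gabra6 counts; those lower were 4 with summed counts or 10 or more Gabra6 counts, 2 at the 5% filter and on either plate, and 0 at the 20% filter or on the mean of log2(CPM + 1). Distinct genes of the other cell type lists, 14 higher and 38 lower as reported, gave 27 higher with summed counts, 26 on MB14, 9 at the 20% filter or without the deep nuclei, and 1 lower on the mean of log2(CPM + 1). In batch 1 granule neuron genes were 7 higher and 11 lower on plate MB17 alone. GABA-A subunits higher were 4 with summed counts, 3 at the 5% filter, 0 at the 20% filter and 2 with 20000 to 200000 counts per nucleus, with 10 or more Gabra6 counts, on either plate and on the mean of log2(CPM + 1); those lower were 1 with summed counts and 0 on the mean of log2(CPM + 1). Of 596 recomputed ratios of 52 named genes, 13 changed sign. With summed counts these were Pax6 (-0.89), Npas3 (1.53), Camk2a (-0.56), Gabrb1 (1.08) and Gabrg3 (0.47). On MB14 it was Gad1 (1.67), and on MB16 Camk2a (-0.11), Xylt1 (0.22) and Gabrg3 (0.022). On the mean of log2(CPM + 1) they were Svep1 (0.33), Gad1 (1.04), Ppp1r1b (0.52) and Gabrb1 (0.11). Except for the filters, the cause was not tested. Of the 24 genes named for size, 14 kept their side in batch 1 with summed counts and with nuclei thinned. No paired analysis was possible because each plate batch is 1 sample and the values come from no test.

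Depth limits the split. A nucleus with 0 counts of Gabra6 is one in which it was not detectable at its depth, and which of the 87 lack the transcript was not tested.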
